A study of Mus musculus with 18 samples.

Results

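Cytochrome P450 genes were followed across cells labelled as sorted from colon tumours of 3 mice and cultured with or without U73122. The members are the genes whose annotated symbol is Cyp followed by a family number, a subfamily letter and a gene number. Cyp51 is left out, and symbols that end in a letter, such as Cyp4a12a, are outside the rule. It finds 123 probes of 81 genes, of 34885 named probes of 19057 genes on the array.

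Illumina mouse bead arrays gave 1 expression profile for each of 18 samples, in 6 groups of 3. The groups are treated and untreated cells of the mouse labels FAK7, FAK1 and FAK5. By the labels the mice were C57Bl/6 animals, 17 weeks old, of the genotype Fapbl-Cre;Apc2lox14/+;tet-KrasLSL-G12D/+, with 1 mouse for each label, which sex-linked transcripts go against for FAK1 and FAK5. CD110+ cells were taken from their tumours with antibody MicroBeads (CD110 is the thrombopoietin receptor). The cells of all 6 groups were kept with Dox. Treated cells received 1 µM U73122 for 24 h, and untreated cells received none. U73122 is a small molecule widely used to inhibit phospholipase C, and the series names the epsilon form as its target. There is no group without the tumour genotype or without Dox, and the labels do not say in which cells the Cre acts.

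Cytochrome P450 enzymes are haem proteins that insert oxygen into fats, steroids, bile acid precursors, vitamins, drugs and pollutants. Most draw electrons from cytochrome P450 reductase in the endoplasmic reticulum, and a few mitochondrial members draw them from ferredoxin. The liver carries the largest and most varied set, and the gut epithelium, lung, kidney, adrenal gland and fat each express members of their own. Nuclear receptors set many of their levels: AHR acts on Cyp1a1, Cyp1a2 and Cyp1b1, CAR and PXR act on Cyp2b10 and Cyp3a11, PPAR alpha acts on the Cyp4a genes, and the retinoic acid receptors act on Cyp26a1.

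Promoter windows of 300 bases, from 250 before to 50 after the start, were taken from RefSeq (GRCm38.p6) for 61 of the 81 members. The window of Cyp26a1, which encodes the enzyme that breaks down retinoic acid, is shown because this member alone passed the test for a treatment difference. It lies at chr19:37697558-37697857 on the plus strand. Capitals mark 1 match to 1 form of the retinoic acid response element, written as 2 repeats of AGTTCA with 5 bases of any kind between them. It is read on the other strand, and its first base is 32 bases before the start.
Cyp26a1: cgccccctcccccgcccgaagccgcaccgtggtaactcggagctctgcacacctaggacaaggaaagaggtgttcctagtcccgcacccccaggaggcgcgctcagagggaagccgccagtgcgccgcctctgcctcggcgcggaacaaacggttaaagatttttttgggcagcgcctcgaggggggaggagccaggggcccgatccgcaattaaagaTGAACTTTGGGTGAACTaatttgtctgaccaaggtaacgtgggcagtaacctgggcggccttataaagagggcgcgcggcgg

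Both strands of all RefSeq windows were searched for this element. It occurred in 8 of 32851 windows (0.0244%), and among the 61 members with a window in Cyp26a1 only. The core of the HNF4A motif, CAAAGTCCA, was searched in the same way, since HNF4A is a factor of hepatocytes and gut epithelium that acts on many P450 genes. It occurred in 156 windows (0.475%) and in 8 of the 61 members (13.1%). A match is a description of the sequence and not a bound site. The matches follow in 29 bases each, with the motif in capitals. The first 4 belong to genes detected on all 6 FAK7 arrays, and the other 4 to genes that were not.
Cyp8b1 (chr9:121916354-121916382, minus strand): agcctctgagCAAAGTCCAagggcaggaa
Cyp2c70 (chr19:40187332-40187360, minus strand): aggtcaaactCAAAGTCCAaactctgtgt
Cyp2c67 (chr19:39649149-39649177, minus strand): atcattgagaCAAAGTCCAtttggaagca
Cyp3a11 (chr5:145879945-145879973, minus strand): aagagagtacCAAAGTCCAgtgatgcaaa
Cyp2c40 (chr19:39812841-39812869, minus strand): atcattgagaCAAAGTCCAtttggaagag
Cyp2c65 (chr19:39060880-39060908, plus strand): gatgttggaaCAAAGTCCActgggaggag
Cyp2c68 (chr19:39741160-39741188, minus strand): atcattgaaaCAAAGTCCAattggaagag
Cyp3a16 (chr5:145469804-145469832, minus strand): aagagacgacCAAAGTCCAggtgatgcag

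The motif was thus present in neighbouring paralogs of both kinds. Of members with a window, 4 of the 36 detected on all 6 FAK7 arrays held it, as did 4 of the other 25.

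Before the P450 genes were compared, the arrays were set against cell type markers. Epcam, the defining surface protein of epithelium, was detected on no array, and of 15 colon epithelium markers 5 were detected on all 6 arrays of FAK7, 4 on those of FAK1 and 3 on those of FAK5. The label of colon tumour cells was therefore not borne out by epithelial markers. Of 15 hepatocyte markers, 14 were detected on all 6 arrays of FAK7, 4 on those of FAK1 and 2 on those of FAK5. Brown fat markers found on every array of a label numbered 5 of 7 in FAK1, 3 in FAK5 and 2 in FAK7. Ucp1, the brown fat uncoupling protein, averaged 4.72 ± 0.59 in FAK7, 13.33 ± 0.54 in FAK1 and 4.44 ± 0.31 in FAK5 (normalized log2 signal, SD, n = 6 each). Cox7a1 and Cox8b, of the same list, did not separate FAK1 from FAK5 in this way. They averaged 13.96 and 14.35 in FAK1, 13.61 and 13.69 in FAK5, and 6.05 and 4.93 in FAK7. For adipocyte markers the counts were 6 of 7 in FAK1, 5 in FAK5 and 2 in FAK7. All 10 skeletal muscle markers were detected on all 6 arrays of FAK5, 3 on those of FAK1 and 1 on those of FAK7. Sex chromosome transcripts also went against the labels. Eif2s3y, a Y-linked gene, was high on the 6 FAK7 arrays and on untreated replicates 1 and 3 of FAK1 and of FAK5, whereas the other 8 arrays of FAK1 and FAK5 carried Xist. The arrays of FAK1 and those of FAK5 thus did not each match 1 mouse. Treatment results of low-p members there are also given without untreated replicates 1 and 3 where a call or a sign changed. The part of cell type in the differences between labels was not tested.

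P450 transcripts were found mainly on the arrays labelled FAK7. A probe counts as detected at a deposited detection p-value under 0.05. On all 6 arrays, 46 of the 81 members were detected in FAK7 (56.8%), 19 in FAK1 (23.5%) and 11 in FAK5 (13.6%). Over all 19057 named genes these shares were 45.5%, 45.6% and 44.2%, so the array as a whole showed no such difference. An array held between 68 and 70 detected member probes in FAK7, between 25 and 34 in FAK1 and between 24 and 27 in FAK5. On all 18 arrays 10 members were detected, or 12.3% against 36.1% of named genes. They were Cyp20a1, Cyp27a1, Cyp2d22, Cyp2e1, Cyp2f2, Cyp2j9, Cyp39a1, Cyp4b1, Cyp4f13 and Cyp4f16. Another 17 members were detected on no array.

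**Figure D1:**
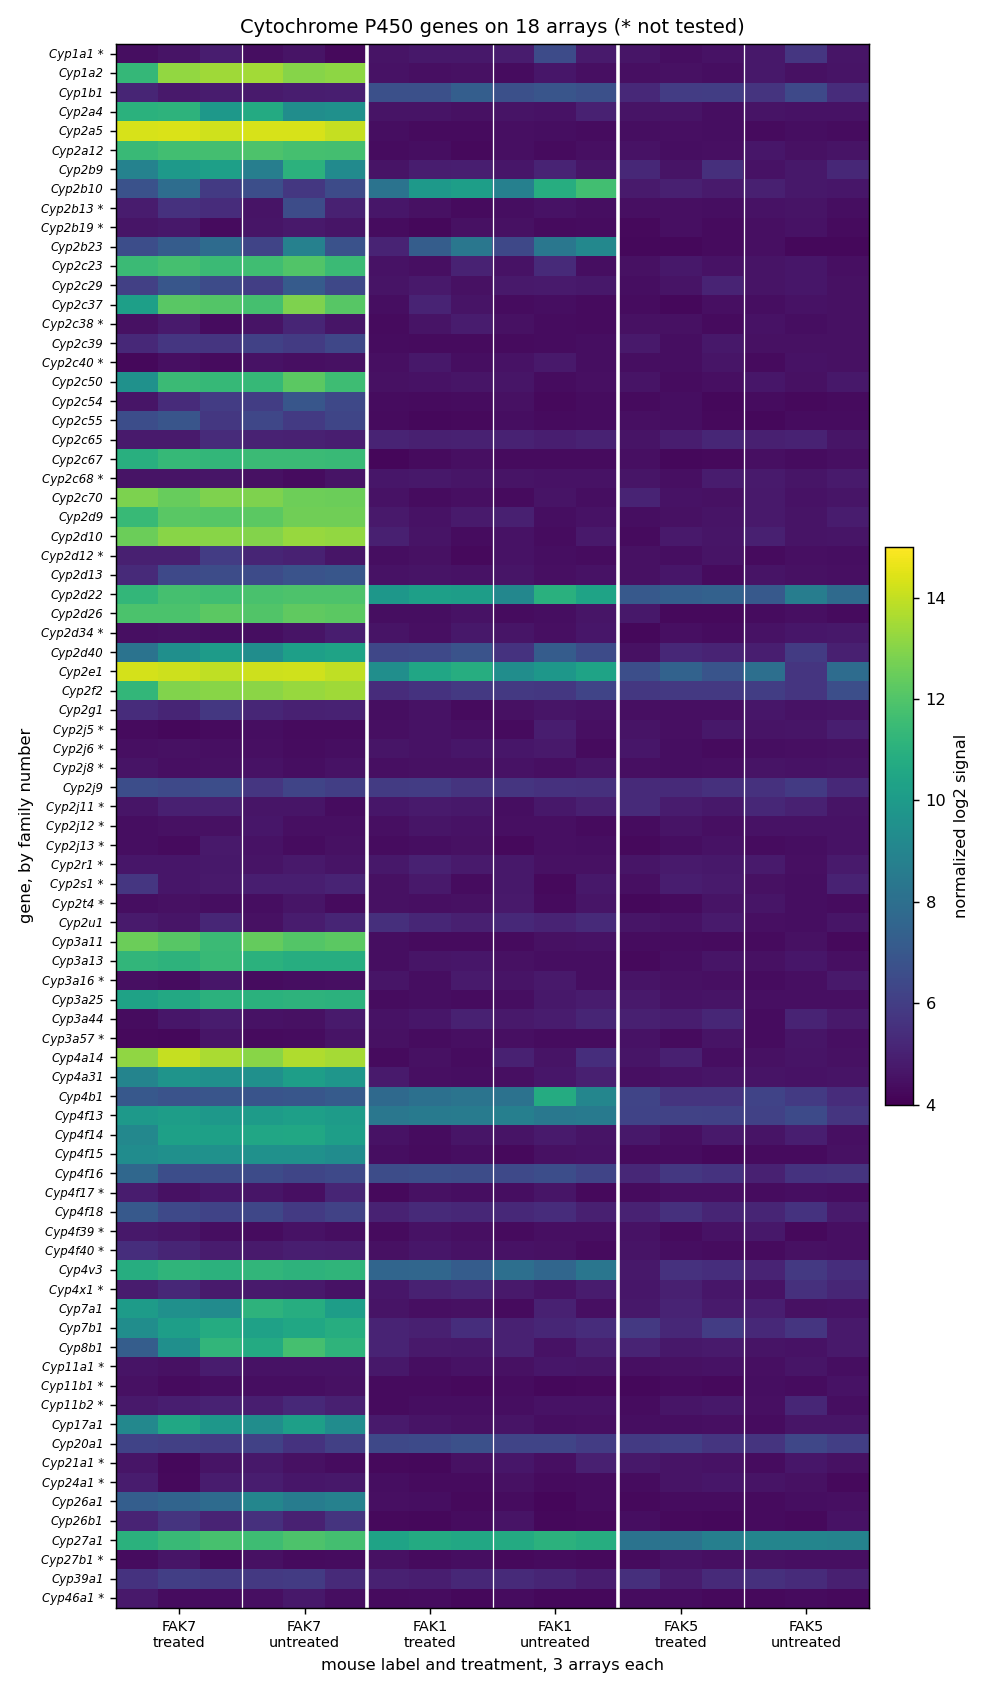
Normalized log2 signal (colour) of the 81 P450 genes (rows, by family number) on 18 arrays (columns, 3 for each mouse label and treatment). Starred genes were not tested because no group detected them on all 3 arrays. On all 6 arrays 46 genes were detected in FAK7, with signals from dim to bright, 19 in FAK1 and 11 in FAK5.

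The filter kept a gene where at least 1 group detected it on all 3 arrays, which left 51 members to test and 30 untested. For most kept members such a group belonged to FAK7, so counts over the 51 describe the genes that passed and not the family. Levels were compared in 1 limma fit of the 18 arrays with Benjamini-Hochberg adjustment over 11406 genes. The labels name no replicate animals, so these tests measure the spread between arrays, whichever animals those came from. FAK7 and FAK1 differed at an adjusted p under 0.05 for 47 of 51 members (75.7% of all genes tested). Of these, 42 were higher in FAK7 (35.3% of all genes) and 5 lower (40.3%), namely Cyp1b1, Cyp20a1, Cyp2b10, Cyp2u1 and Cyp4b1. FAK7 and FAK5 differed for 47 members (80.5% of all genes), 46 higher (40.0%) and 1, Cyp1b1, lower in FAK7 (40.5%). FAK1 and FAK5 differed for 13 members (60.7% of all genes), with 13 higher (32.9%) and 0 lower in FAK1 (27.8%). At an unadjusted p under 0.05 the count was also 13, against 63.8% of all genes. The median member difference was 4.05 between FAK7 and FAK1 on the log2 scale, against -0.08 over all genes.

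Several members known for oxidising drugs and pollutants were bright in FAK7. Cyp2a5, which hydroxylates coumarin, averaged 14.27 ± 0.13 in FAK7, 4.39 ± 0.05 in FAK1 and 4.39 ± 0.05 in FAK5 (SD, n = 6 each). No FAK1 or FAK5 array was well above background for it, so its level in FAK7 was at least 694-fold higher than in FAK1 and at least 703-fold higher than in FAK5. Such bounds set the dim arrays to at least the lowest signal of a detected probe. Its FAK7 signals lay near the top of the scale, whose highest value was 14.77 on every array. The Cyp2a5 probe may also capture transcripts of the near-identical paralog Cyp2a4.

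Cyp1a2, an AHR target that oxidises caffeine and aromatic amines, averaged 12.93 ± 0.81 in FAK7 and was not well above background in FAK1 (4.49 ± 0.09) or FAK5 (4.52 ± 0.10). Its neighbour Cyp1a1, another AHR target, was detected on no FAK7 array, on 1 FAK1 array and on 1 FAK5 array. Cyp1b1, the third AHR target and an enzyme that oxidises oestrogens and polycyclic hydrocarbons, ran the other way. It averaged 4.89 ± 0.13 in FAK7, 6.82 ± 0.24 in FAK1 and 5.79 ± 0.43 in FAK5, and was detected on 1 of the 6 FAK7 arrays and on all 12 others. The 3 targets of 1 receptor therefore did not share a pattern across the labels.

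CAR and PXR targets split in the same way. Cyp3a11, a broad drug and steroid hydroxylase, averaged 12.14 ± 0.36 in FAK7 and was not well above background in FAK1 (4.41 ± 0.10) or FAK5 (4.36 ± 0.07), a difference of at least 159-fold over FAK1. Cyp2b10, the classic phenobarbital-induced gene, was highest in FAK1. It averaged 6.58 ± 0.78 in FAK7, 9.93 ± 1.29 in FAK1 and 4.82 ± 0.12 in FAK5, where 2 of 6 arrays detected it. Its FAK1 values were 8.17, 9.91 and 10.18 on treated arrays and 8.79, 10.85 and 11.68 on untreated arrays, all above the highest FAK7 value of 7.92. Cyp2b23, of the same subfamily and also on chromosome 7, averaged 7.25 ± 0.95 in FAK7, 7.42 ± 1.49 in FAK1 and 4.28 ± 0.10 in FAK5. FAK7 and FAK1 overlapped for it, and the sign of their difference changed when single arrays were left out. Cyp2c29 (6.53 ± 0.45) and Cyp2c55 (6.30 ± 0.42) were detected on all 6 FAK7 arrays, on at most 1 array of FAK1 and on at most 1 of FAK5.

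Cyp2e1, which oxidises ethanol and small solvents, was measured on all 18 arrays. It averaged 14.12 ± 0.15 in FAK7, 10.07 ± 0.60 in FAK1 and 7.09 ± 0.87 in FAK5, with no overlap between FAK7 and the others. The ratio was 16.5-fold for FAK7 over FAK1, 131-fold for FAK7 over FAK5 and 7.89-fold for FAK1 over FAK5. The FAK7 signals lay near the top of the scale, as for Cyp2a5, which limits how exactly the ratios with FAK7 can be read. Cyp2f2, known in lung and liver for oxidising naphthalene, averaged 12.84 ± 0.79 in FAK7, 5.78 ± 0.28 in FAK1 and 5.96 ± 0.35 in FAK5. It was 134-fold higher in FAK7 than in FAK1, while FAK1 and FAK5 did not differ beyond their spread.

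Among the Cyp2c genes, several of which make epoxides from arachidonic acid, Cyp2c70, which forms muricholic acids in mice, averaged 12.70 ± 0.20 in FAK7, 4.45 ± 0.10 in FAK1 and 4.67 ± 0.23 in FAK5. Cyp2c37 averaged 11.88 ± 0.89 and Cyp2c23 11.65 ± 0.22 in FAK7. Of 13 Cyp2c members, 8 were detected on all 6 FAK7 arrays and 1, Cyp2c65, on all 6 FAK1 arrays. Cyp2c65, known in mouse intestine, was dim everywhere, with 4.99 ± 0.20 in FAK7, 5.02 ± 0.07 in FAK1 and 4.88 ± 0.24 in FAK5. Of 8 Cyp2d members, 6 were detected on all 6 FAK7 arrays, 2 on those of FAK1 and 1 on those of FAK5. Cyp2d22 averaged 11.73 ± 0.24 in FAK7, 10.10 ± 0.62 in FAK1 and 7.56 ± 0.60 in FAK5. Cyp2d40 averaged 9.62 ± 0.81 in FAK7, 6.48 ± 0.52 in FAK1 and 5.11 ± 0.47 in FAK5, so both took the same order. Cyp2d10 (13.02 ± 0.28), Cyp2d26 (12.09 ± 0.19) and Cyp2a12 (11.71 ± 0.15) were among the brighter FAK7 members.

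**Figure D2:**
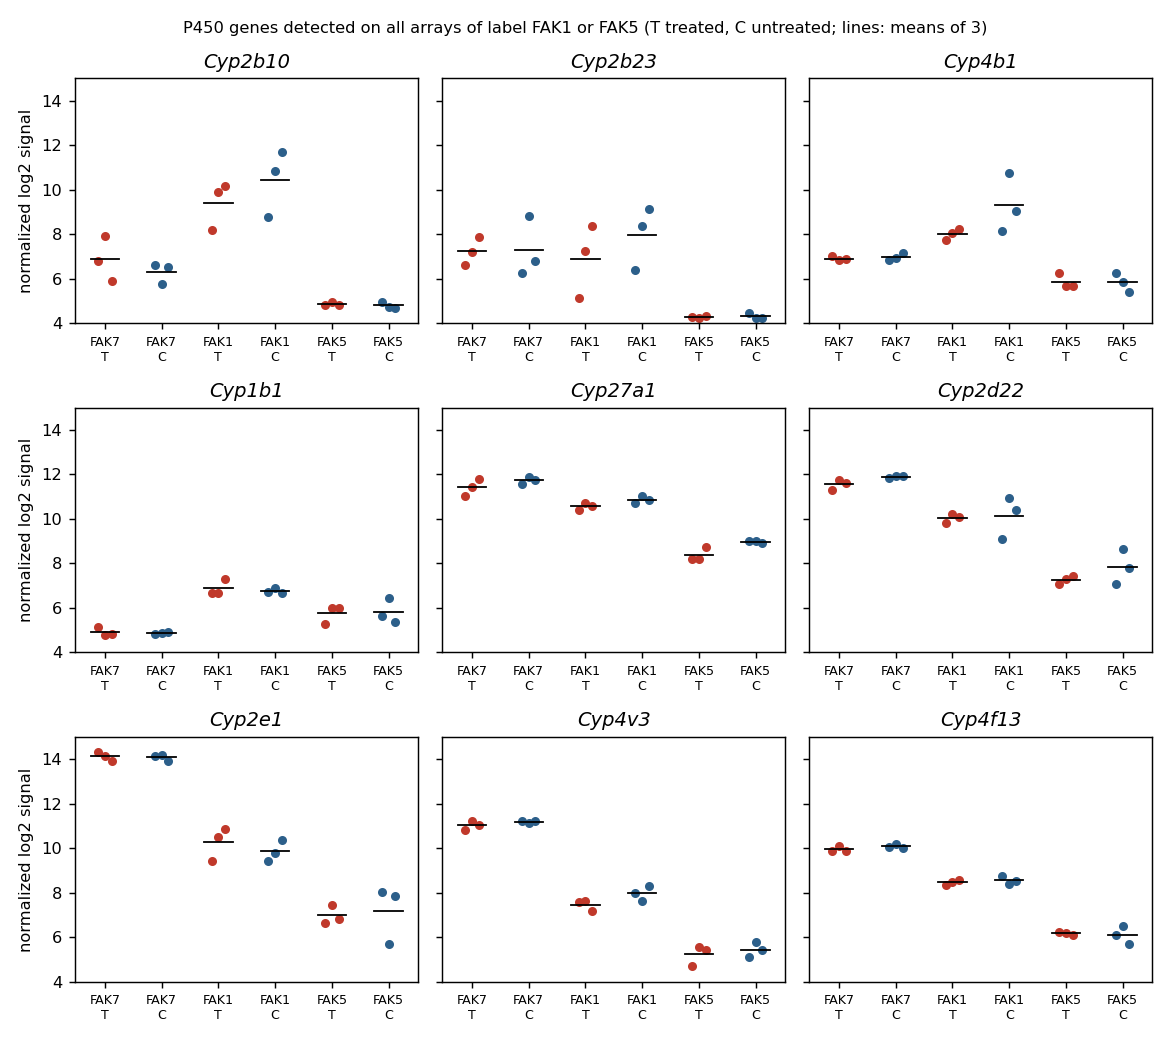
Normalized log2 signal of 9 P450 genes on every array (points; red treated, blue untreated) with group means of 3 (lines), in the order FAK7, FAK1, FAK5. Cyp2e1, Cyp27a1, Cyp2d22, Cyp4v3 and Cyp4f13 fall in steps across the labels, Cyp2b10 and Cyp4b1 are highest in FAK1, and Cyp1b1 is lowest in FAK7.

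Of 6 members that act in bile acid and oxysterol synthesis, 5 were detected on all 6 FAK7 arrays, 3 on those of FAK1 and 2 on those of FAK5. Cyp7a1, the rate-limiting enzyme of bile acid synthesis, averaged 10.16 ± 0.71 in FAK7, 4.55 ± 0.24 in FAK1 and 4.76 ± 0.23 in FAK5. It was detected on 1 array of FAK1 and 2 of FAK5. Cyp8b1, which directs the pathway to cholic acid, averaged 10.27 ± 1.66 in FAK7, 4.85 ± 0.21 in FAK1 and 4.75 ± 0.20 in FAK5. Cyp7b1, the oxysterol hydroxylase of the alternative pathway, averaged 10.34 ± 0.54 in FAK7, 5.18 ± 0.20 in FAK1 and 5.45 ± 0.45 in FAK5.

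Cyp27a1, the mitochondrial sterol hydroxylase, was detected on all 18 arrays. It averaged 11.58 ± 0.31 in FAK7, 10.72 ± 0.22 in FAK1 and 8.67 ± 0.38 in FAK5, and was 1.81-fold higher in FAK7 than in FAK1 and 4.16-fold higher in FAK1 than in FAK5. Cyp39a1, an oxysterol hydroxylase of liver, averaged 5.76 ± 0.27 in FAK7, 5.08 ± 0.17 in FAK1 and 5.24 ± 0.28 in FAK5. Cyp46a1, the cholesterol hydroxylase of neurons, was detected on no array.

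Steroid hormone and vitamin D enzymes were mostly undetected. Cyp17a1, which makes androgen precursors in gonads and is also known in rodent liver, averaged 9.74 ± 0.55 in FAK7 and was detected on no array of FAK1 or FAK5, at least 30.2-fold higher than in FAK1. Cyp11a1 and Cyp11b1, adrenal steroid enzymes, were detected on no array, Cyp21a1 on 1 FAK1 array, and Cyp11b2 on 3 FAK7 arrays and 1 FAK5 array. Cyp27b1 and Cyp24a1, which activate and break down vitamin D in kidney, were detected on no array, and Cyp2r1, the liver vitamin D hydroxylase, on 1 FAK1 array. Both retinoic acid enzymes were detected on FAK7 arrays: Cyp26a1 averaged 8.19 ± 0.74 and Cyp26b1 5.33 ± 0.30 there, and neither was detected on any array of FAK1 or FAK5.

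Fatty acid hydroxylases differed in how widely they were found. Cyp4a14, a PPAR alpha target, averaged 13.52 ± 0.36 in FAK7, 4.70 ± 0.43 in FAK1 and 4.60 ± 0.20 in FAK5, with 2 FAK1 arrays and 1 FAK5 array above background. Cyp4v3 averaged 11.12 ± 0.15 in FAK7, 7.73 ± 0.39 in FAK1 and 5.34 ± 0.39 in FAK5, so that no array of 1 label reached the range of the next. Cyp4f13 took the same steps, with 10.02 ± 0.13 in FAK7, 8.52 ± 0.15 in FAK1 and 6.14 ± 0.26 in FAK5. Cyp4b1, which hydroxylates fatty acids and is known in lung and fat, was highest in FAK1: it averaged 6.94 ± 0.13 in FAK7, 8.66 ± 1.12 in FAK1 and 5.85 ± 0.34 in FAK5. Cyp4f16 was close in FAK7 (6.68 ± 0.49) and FAK1 (6.51 ± 0.15), where the fit made no call, and lower in FAK5 (5.49 ± 0.31).

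Cyp2j9, Cyp20a1 and Cyp2u1 gave dim signals with small differences between the labels, some of which passed the test. Cyp2j9, an arachidonic acid hydroxylase, averaged 6.27 ± 0.33 in FAK7, 5.72 ± 0.18 in FAK1 and 5.47 ± 0.23 in FAK5. It was 1.47-fold higher in FAK7 than in FAK1 (adjusted p = 0.000479) and 1.75-fold higher than in FAK5 (adjusted p = 8.86e-06). Cyp20a1, an enzyme with no settled substrate, averaged 6.02 ± 0.20 in FAK7, 6.33 ± 0.26 in FAK1 and 5.94 ± 0.26 in FAK5. Its call between FAK7 and FAK1 (adjusted p = 0.0421) was lost when single arrays were left out, with adjusted p up to 0.128, and rose to 0.462 on untreated arrays alone. Cyp2u1, a fatty acid hydroxylase, was detected on 2 FAK7 arrays, 6 FAK1 arrays and no FAK5 array. It was called lower in FAK7 than in FAK1 (adjusted p = 0.0157) and higher in FAK1 than in FAK5 (adjusted p = 0.000276).

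Members that differ by sex in mouse liver were present from both sides in FAK7, whose 6 arrays carry Eif2s3y. Of the male-biased members, Cyp2d9, a testosterone hydroxylase, averaged 12.19 ± 0.44 there, and Cyp7b1 is given above. Of the 5 female-biased members on the array, 2 were detected on all 6 FAK7 arrays. Cyp2a4, another testosterone hydroxylase, averaged 10.27 ± 0.77 and Cyp2b9 averaged 9.68 ± 0.91. Cyp2b13 was detected on 4 FAK7 arrays and Cyp3a16 and Cyp3a44 on none. Cyp2a4 has a near-identical paralog in Cyp2a5, also on chromosome 7. Probes of such paralogs may capture each other's transcripts, so the levels of both are uncertain.

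Detected and undetected members lay next to each other in several clusters, beside runs of neighbours that shared their state. Along chromosome 19, in the RefSeq order of GRCm38.p6, the run from Cyp2c55 to Cyp2c70 holds Cyp2c29, Cyp2c39, Cyp2c67, Cyp2c37 and Cyp2c50, detected on all 6 FAK7 arrays. Between them lie Cyp2c68 and Cyp2c40, detected on no array. The promoter windows of Cyp2c67, Cyp2c68 and Cyp2c40 printed above share the motif and most flanking bases. On chromosome 4, Cyp2j9 was detected on all 18 arrays, while Cyp2j13, Cyp2j12, Cyp2j8 and Cyp2j6, of the same run of genes, were detected on none. Cyp2j5, known in mouse liver and kidney, was detected on 1 FAK1 array and on no FAK7 array. On chromosome 15, Cyp2d22, Cyp2d10, Cyp2d9, Cyp2d13, Cyp2d40 and Cyp2d26 were detected on all 6 FAK7 arrays, Cyp2d12 on 4 and Cyp2d34 on none. A lack of detection here concerns the probes on this array.

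The question of the series was what U73122 changed, and among P450 genes the test found 1 difference, in FAK7. Cyp26a1 was lower on treated FAK7 arrays, and Cyp2c54, Cyp7a1 and Cyp2c39 were the next by p without passing. Of 51 members tested in FAK7, 1 passed at an adjusted p under 0.05 (0.570% of all genes tested in either direction, 0.132% lower). Before adjustment 16 members had p under 0.05, or 31.4% against 10.3% of all genes. All FAK7 tests come from the limma fit of the 18 arrays, with treated minus untreated as the difference. The labels do not say that replicates are separate cultures, so each p-value covers array-to-array spread that may be technical. In bulk RNA fewer cells of a type and less RNA per cell cannot be told apart.

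Cyp26a1 read 7.27, 7.54 and 7.83 on treated FAK7 replicates 1 to 3, against 9.03, 8.63 and 8.84 on the untreated ones. Every treated array lay below every untreated array. The difference was -1.29 ± 0.15 on the log2 scale (SE, adjusted p = 0.000289). This is the gene whose promoter window printed above carries a match to 1 form of the retinoic acid response element. It kept its call under all 14 single-choice alternatives that gave a value, with differences between -1.43 and -0.92 and adjusted p between 0.000256 and 0.0349. The other Cyp26a1 probe was dim, with 4.90 on treated arrays (1 of 3 detected) and 5.46 on untreated arrays (3 of 3 detected), and fitted on its own it did not pass (adjusted p = 0.16). Cyp26b1, which also breaks down retinoic acid, read 5.08, 5.64 and 5.08 on treated arrays against 5.51, 5.00 and 5.64 on untreated arrays, and the groups overlapped.

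**Figure D3:**
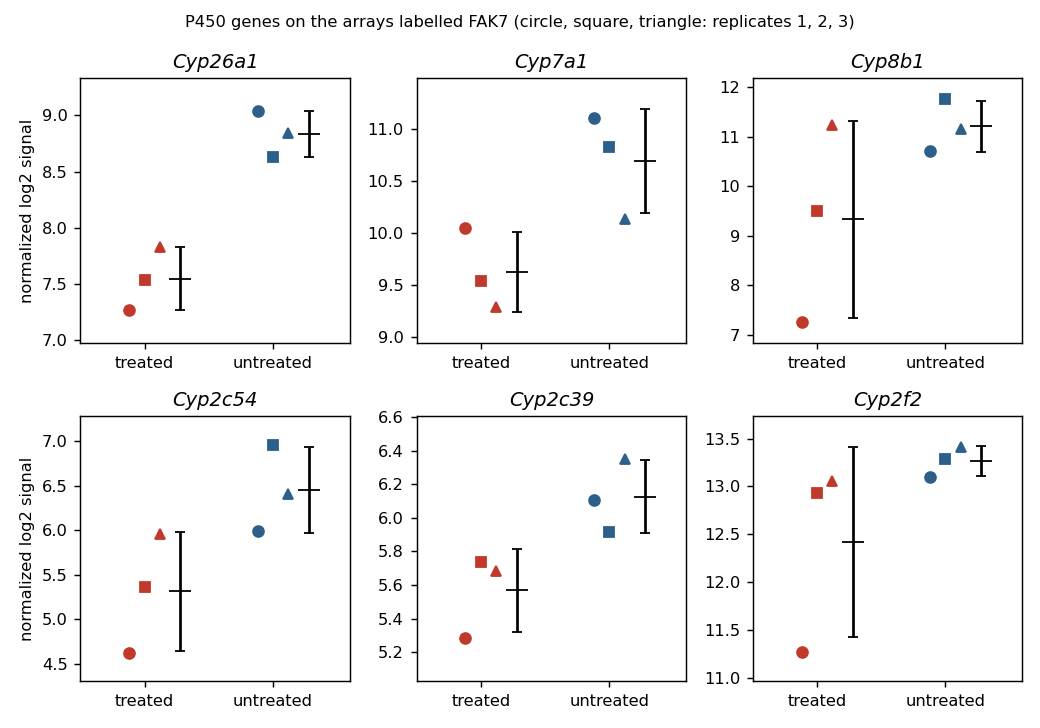
Normalized log2 signal of 6 P450 genes on the 3 treated (red) and 3 untreated (blue) FAK7 arrays, with mean and SD (black) and replicates 1, 2 and 3 as circle, square and triangle. Cyp26a1 is separated by more than its spread, while treated replicate 1 carries most of the difference of Cyp8b1 and Cyp2f2.

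Cyp7a1 read 10.05, 9.54 and 9.29 on treated FAK7 arrays, against 11.11, 10.83 and 10.14 on untreated arrays. All treated values lay below all untreated ones, narrowly at the nearest pair, and the difference of -1.07 ± 0.25 missed the threshold (SE, adjusted p = 0.0646). Cyp8b1 read 7.26, 9.50 and 11.24 on treated arrays, against 10.72, 11.76 and 11.16 on untreated arrays. Its groups overlapped, and the treated values covered a wide range (difference -1.88 ± 0.60, adjusted p = 0.216). Cyp7b1, Cyp27a1 and Cyp39a1 did not pass either, with differences of -0.47 ± 0.31, -0.32 ± 0.18 and 0.16 ± 0.21.

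Cyp2c54, an arachidonic acid epoxygenase, read 4.63, 5.36 and 5.96 on treated FAK7 arrays, against 5.99, 6.96 and 6.40 on untreated arrays. The groups did not overlap, though the nearest values were almost equal (difference -1.13 ± 0.25, adjusted p = 0.0527). Cyp2c39, which can also hydroxylate retinoic acid, read 5.28, 5.73 and 5.69 on treated arrays, against 6.11, 5.92 and 6.35 on untreated arrays (difference -0.56 ± 0.14, adjusted p = 0.091). Both genes gave dim signals, and Cyp2c54 was below background on 1 treated array. For Cyp2c67 the 2 kept probes differed: the brighter gave -0.27 and the dimmer -0.98. The dimmer passed (adjusted p = 0.00862) when each probe was fitted on its own, an alternative added after the data were seen.

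Members with higher values on treated FAK7 arrays did not pass the test. Cyp2a4 read 11.02, 11.10 and 9.88 on treated arrays, against 10.72, 9.39 and 9.51 on untreated arrays, and overlapped (difference 0.79 ± 0.31, adjusted p = 0.367). Cyp2j9 read 6.60, 6.41 and 6.59 on treated arrays, against 5.74, 6.26 and 6.04 on untreated arrays, without overlap (difference 0.52 ± 0.17, adjusted p = 0.239). In FAK7 all treated arrays lay below all untreated ones for 9 of the 51 members, or 17.6% against 9.47% of all genes. They lay above for 3 members (Cyp2j9, Cyp3a13 and Cyp4f16), or 5.88% against 10.3% of all genes.

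The Cyp2c and Cyp2d clusters gave further low p-values in FAK7 that did not pass. Cyp2d9 read 11.43, 12.17 and 12.08 on treated arrays, against 12.21, 12.63 and 12.64 on untreated arrays (difference -0.60 ± 0.20, adjusted p = 0.239). Treated replicate 1 was lowest, and the groups met without overlap. Cyp2d13 read 5.31, 6.45 and 6.56 on treated arrays, against 6.51, 6.81 and 6.93 on untreated arrays (difference -0.64 ± 0.23, adjusted p = 0.31). Cyp2c50 read 9.57, 11.51 and 11.39 on treated arrays, against 11.36, 12.25 and 11.59 on untreated arrays (difference -0.91 ± 0.35, adjusted p = 0.354). For both, treated replicate 1 was the lowest of the 6 arrays and the groups overlapped. Cyp2g1, known from olfactory tissue, was dim and higher on treated arrays (difference 0.36 ± 0.14, adjusted p = 0.352). Of the male-biased liver list, 4 genes were tested, among them Cyp2d9 and Cyp7b1, and their FAK7 differences lay between -0.60 and -0.47 with 0 called and 0 called in FAK1, FAK5 or over the labels. The 3 female-biased genes tested lay between 0.0097 (Cyp2b9) and 0.79 (Cyp2a4) with 0 called. The remaining gene, Cyp3a44 (0.021), was detected on no FAK7 array, so its value is one of background. Treated replicate 1 was the lowest of the 6 FAK7 arrays for all 4 male-biased genes. Without that array the difference of Cyp2d9 was -0.37 and that of Cyp7b1 -0.10. For the female-biased Cyp2a4 and Cyp2b9 it was then 0.61 and 0.40. Cyp4a12a, also of that list, read 7.06, 9.16 and 9.59 on treated arrays, against 8.95, 8.79 and 9.53 on untreated arrays.

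Many of the lower values came from treated FAK7 replicate 1. It was the lowest of the 6 FAK7 arrays for 25 of the 51 members (49.0%), against 22.9% of all genes. Cyp2f2 read 11.27 on it and 12.93 and 13.05 on the other treated arrays, against 13.09, 13.29 and 13.41 on untreated arrays. Cyp1a2 read 11.32 on it and 13.22 and 13.41 on the other treated arrays, against 13.49, 12.98 and 13.14 on untreated arrays. Without this array the Cyp2f2 difference was -0.27, that of Cyp1a2 0.11, that of Cyp8b1 -0.84 and that of Cyp2c50 -0.28, against -0.84, -0.55, -1.88 and -0.91 with it. Cyp26a1 kept its call without it (difference -1.15, adjusted p = 0.00176). Of the 51 members 29 had a difference below 0 without it and 31 with it (60.8%, against 49.2% of all genes). Their median difference was -0.06 without it and -0.13 with it.

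Myeloid markers and the keratins Krt8 and Krt18 stood apart on the same array. The summed signal of 10 myeloid markers, all detected on every FAK7 array, was 18196, 9593 and 10523 on treated FAK7 replicates 1 to 3, against 8822, 7089 and 8014 on untreated ones. Of these markers 9 had higher means on treated arrays, with a median difference of 0.79, and C1qb passed the test. The summed signal of the 15 colon epithelium markers was 11940, 7680 and 7114 on treated replicates 1 to 3, against 7179, 6501 and 7589 on untreated ones. The keratin Krt8 read 12.90, 12.16 and 12.07 on treated arrays, against 12.17, 11.87 and 12.18 on untreated arrays. Krt18, another keratin of the list, read 11.64, 10.84 and 10.70 on treated arrays, against 10.69, 10.84 and 10.82 on untreated arrays. Among other list members tested, Cdh1 was also highest on treated replicate 1 (8.77). Lgals4 (8.59), Lgr5 (5.15) and Car1 (4.73) read lower there than on the other treated arrays. Of 14 hepatocyte markers tested, 6 had higher and 8 lower means on treated arrays, and 1 was called, Hpd (difference 1.42 ± 0.24, adjusted p = 0.00945). The part of these signals in the P450 differences was not tested.

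**Figure D4:**
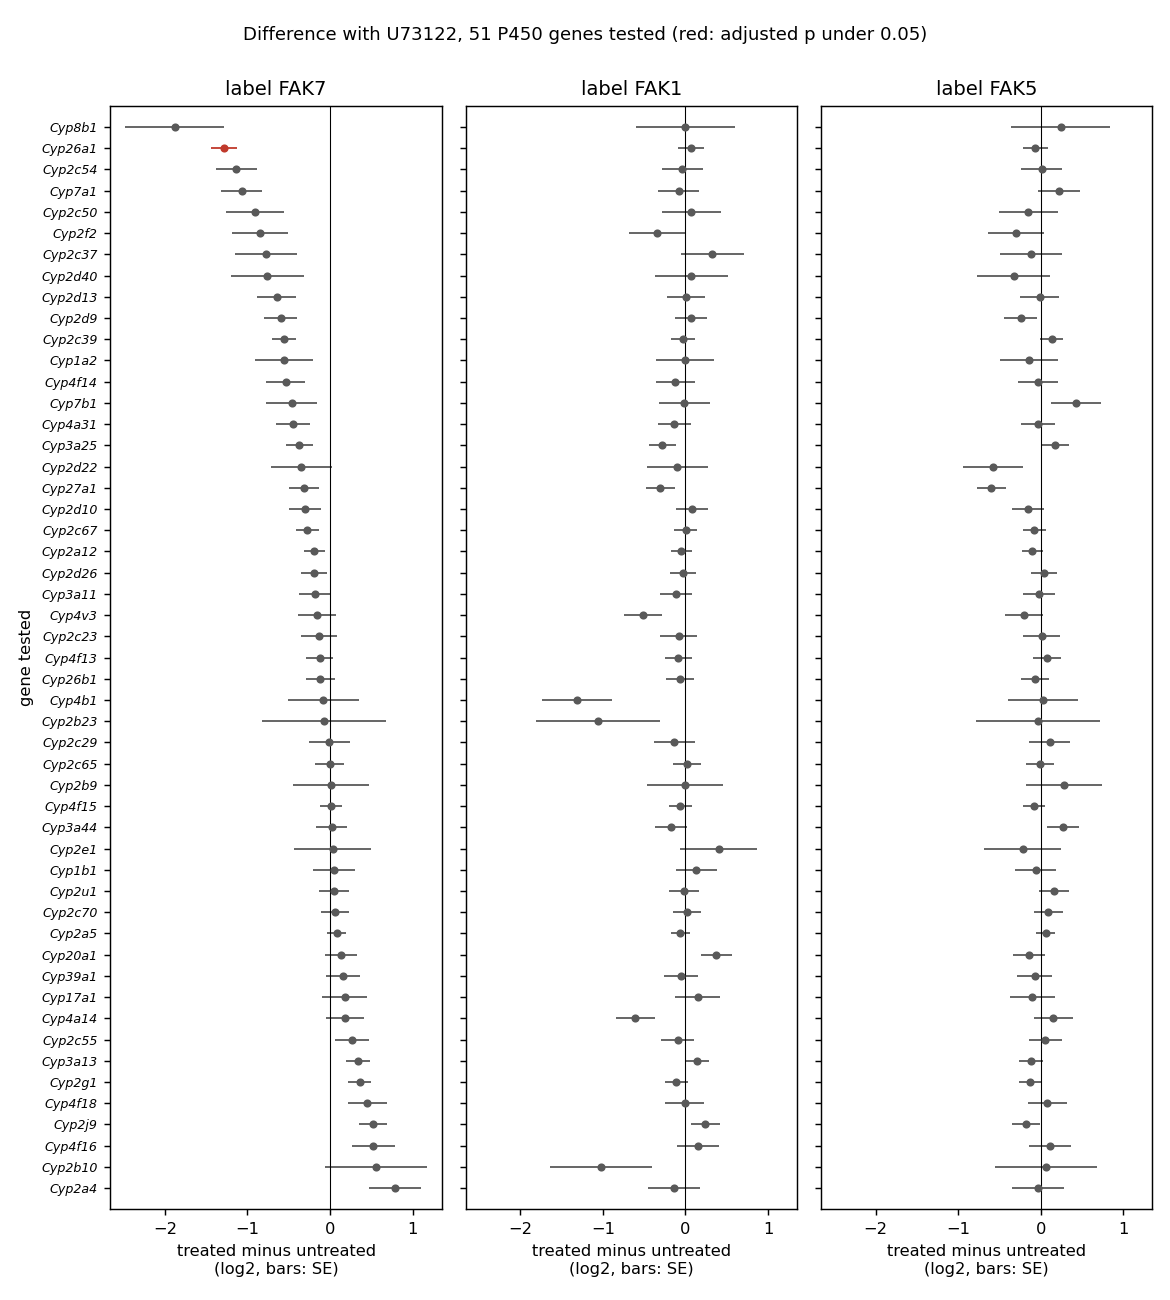
Treated minus untreated difference on the log2 scale (points, bars are SE) of the 51 P450 genes tested, for labels FAK7, FAK1 and FAK5, sorted by the FAK7 value. Red marks an adjusted p under 0.05, which only Cyp26a1 in FAK7 reached.

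Without single arrays the FAK7 count ranged from 1 to 3 members. Without treated replicate 3, Cyp8b1 (difference -2.83) and Cyp2c54 (difference -1.46) also passed, each with an adjusted p of 0.00428. Cyp2c54 also passed without untreated replicate 1 (adjusted p = 0.0344), and Cyp7a1 without untreated replicate 3 (adjusted p = 0.0315).

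In FAK1 no member passed the test for treatment (0.885% of all genes did), and 3 had an unadjusted p under 0.05 (5.88%, against 11.5% of all genes). Differences were below 0 for 34 of 51 (66.7%, against 52.2% of all genes). All treated arrays lay below all untreated ones for 3 members (Cyp27a1, Cyp3a25 and Cyp4a14), or 5.88% against 8.14% of all genes. They lay above for 2 (Cyp20a1 and Cyp2c37), or 3.92% against 7.31%. Of these, Cyp3a25 and Cyp2c37 were each detected on 1 of 6 FAK1 arrays and Cyp4a14 on 2, so their order is mainly one of background values. The counts below 0 likewise include members not detected in FAK1. Cyp4b1 read 7.74, 8.06 and 8.22 on treated FAK1 arrays, against 8.14, 10.77 and 9.05 on untreated arrays. The groups overlapped through untreated replicate 1 (difference -1.31 ± 0.43, adjusted p = 0.193). Untreated replicates 1 and 3 carry Eif2s3y, and against untreated replicate 2 alone the difference was -2.76 (adjusted p = 0.000175), with that array assumed to vary like the other groups. Without untreated replicate 1 only, it was -1.90 (adjusted p = 0.0183). Skeletal muscle markers moved with these arrays: their summed signal was 78422, 81276 and 29010 on treated FAK1 replicates 1 to 3, against 284, 22799 and 2277 on untreated ones. Their part in the Cyp4b1 difference was not tested.

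Other FAK1 members with low p were Cyp4a14 and Cyp4v3. Cyp4a14 read 4.32, 4.50 and 4.38 on treated arrays, none above background, against 5.01, 4.58 and 5.42 on untreated arrays, of which 2 were (difference -0.61 ± 0.23, adjusted p = 0.309). Those 2 were untreated replicates 1 and 3, which carry Eif2s3y. Cyp4v3 read 7.57, 7.64 and 7.20 on treated arrays, against values between 7.63 and 8.32 on untreated arrays (difference -0.51 ± 0.23, adjusted p = 0.398). Cyp2b10, highest in FAK1, had a difference of -1.02 ± 0.62 (adjusted p = 0.582), with values that spread more within each group than between them. Cyp2b23 ran with it across the 6 FAK1 arrays, at 5.11, 7.23 and 8.35 on treated and 6.37, 8.35 and 9.12 on untreated arrays. Cyp20a1 read 6.39, 6.49 and 6.69 on treated FAK1 arrays, against 6.26, 6.24 and 5.93 on untreated arrays, without overlap (difference 0.38 ± 0.19, adjusted p = 0.478). Cyp2e1 read 9.43, 10.52 and 10.85 on treated FAK1 arrays, against 9.41, 9.81 and 10.38 on untreated arrays, and overlapped (difference 0.40 ± 0.47, adjusted p = 0.835).

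In FAK5 no member passed either (0.0701% of all genes did), and 1 had an unadjusted p under 0.05 (1.96%, against 11.3% of all genes). Differences were below 0 for 30 of 51 (58.8%, against 47.8% of all genes). Treated arrays all lay below untreated ones for 3 members (Cyp1a2, Cyp27a1 and Cyp2g1), or 5.88% against 5.98% of all genes, and above for Cyp3a25 alone, or 1.96% against 6.54%. Of these, Cyp1a2, Cyp2g1 and Cyp3a25 were detected on no FAK5 array, so their order is one of background values, and these counts include many members that passed the filter through FAK7. Cyp27a1 read 8.19, 8.19 and 8.73 on treated FAK5 arrays, against 8.99, 9.0036 and 8.91 on untreated arrays. All treated values lay below all untreated ones (difference -0.60 ± 0.18, adjusted p = 0.205). Cyp2d22 read 7.08, 7.30 and 7.43 on treated arrays, against 7.09, 8.67 and 7.79 on untreated arrays, and overlapped (difference -0.58 ± 0.37, adjusted p = 0.614). The overlap came through untreated replicate 1, which carries Eif2s3y, as does replicate 3. Without replicate 1 the difference was -0.96, and without untreated replicate 2 it was -0.17.

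Over the 3 labels, averaged to 6 profiles with the label as a block, no member passed (0% of all genes did). At an unadjusted p under 0.05 were 4 of 51 members, or 7.84% against 5.39% of all genes, and 33 of 51 had a difference below 0 (64.7%, against 49.3%). The count below 0 includes many members not detected in FAK1 or FAK5, whose values there are background. Cyp27a1 had the smallest p, with -0.41 ± 0.10 (adjusted p = 0.817). It was lower on treated arrays in each label, with differences of -0.32 in FAK7, -0.30 in FAK1 and -0.60 in FAK5. The others were Cyp2f2 (-0.50 ± 0.14), Cyp2d22 (-0.34 ± 0.12) and Cyp4v3 (-0.29 ± 0.12). These averages include the untreated FAK1 and FAK5 arrays with Eif2s3y. Cyp26a1 itself was -0.43 ± 0.27 here, since it was detected in FAK7 alone.

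Whether treatment differences varied between the labels was tested with a moderated F test. Of the 51 members 1 passed (0.377% of all genes did), and it was Cyp26a1 (F = 23.4, adjusted p = 0.0123). Its differences were -1.29 in FAK7, 0.07 in FAK1 and -0.07 in FAK5, but in FAK1 and FAK5 no array detected it, so no response could be measured there. The call was lost without untreated FAK7 replicate 1 (adjusted p = 0.0646) or replicate 3 (adjusted p = 0.0533), and with the mean of its probes (adjusted p = 0.0667). Cyp7a1 came next (adjusted p = 0.205).

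Genes that serve or regulate P450 enzymes gave no call for treatment. Of 5 redox partners tested none passed in FAK7, FAK1, FAK5 or over the labels, with a median FAK7 difference of -0.14, against 0.0038 over all genes. Cyb5r3, which reduces cytochrome b5, had the smallest FAK7 p among them (-0.32 ± 0.16, adjusted p = 0.538). Fdx1, also among them, was detected on no FAK7 array. Por, the cytochrome P450 reductase, and Fdxr were listed but had no named probe on the array. Cyb5a, cytochrome b5, averaged 14.33 ± 0.18 in FAK7, 12.53 ± 0.13 in FAK1 and 10.34 ± 0.09 in FAK5. Of 11 haem synthesis and breakdown genes none passed, with Uros lowest by p in FAK7 (-0.54 ± 0.18, adjusted p = 0.244). Alas1, the rate-limiting enzyme of haem synthesis in liver, averaged 13.68 ± 0.12 in FAK7, 13.42 ± 0.14 in FAK1 and 11.87 ± 0.23 in FAK5. Between FAK7 and FAK1 the median difference of the haem genes was -0.05, with 4 of 11 called higher and 2 lower.

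Among 21 regulators tested none passed for treatment. Ahr, which encodes AHR, was listed but not among those tested. Bcl6, a repressor of sex-biased liver genes, had the smallest FAK7 p (-0.84 ± 0.37, adjusted p = 0.432), and Cux2, known from female mouse liver, came next (0.61 ± 0.28, adjusted p = 0.463). By level, 11 of the 21 regulators were called higher and 7 lower in FAK7 than in FAK1, and 15 higher and 5 lower in FAK7 than in FAK5. Nr1i2, which encodes PXR, averaged 8.63 ± 0.20 in FAK7 and was detected on no array of FAK1 or FAK5. Nr1i3, which encodes CAR, averaged 10.31 ± 0.58 in FAK7 and was likewise undetected elsewhere, also in FAK1, where its target Cyp2b10 was highest. Ppara averaged 7.84 ± 0.53 in FAK7, 8.37 ± 0.30 in FAK1 and 4.73 ± 0.28 in FAK5, whereas its target Cyp4a14 was detected on all 6 arrays of FAK7 only. Hnf4a averaged 11.27 ± 0.23 in FAK7, 4.92 ± 0.33 in FAK1 and 4.82 ± 0.19 in FAK5.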

How the data were processed

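The deposited table holds, per the file headers, an average bead intensity and a detection p-value for 45281 probes on each of 18 arrays. Values below 0 on every array show that background had been subtracted. Which software made them is not stated in the labels. The deposited series matrix, whose intensity columns have nearly equal distributions, served as an alternative. Symbols came from the platform annotation. Of 34885 named probes, Entrez numbers linked 34807 to RefSeq genes.

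Signals were corrected and normalized with neqc (offset 16, limma 3.58.1, R 4.3.3) and taken to log2. A probe was kept where some group detected it on each of its 3 arrays at p under 0.05 (21193 probes), and the brightest named probe stood for each of 11406 genes. Of the 81 members, 28 had several probes. A limma fit with 1 mean per group and an intensity trend, two-sided, with Benjamini-Hochberg adjustment over all genes, gave the tests within and between labels. Treatment over labels used 6 averaged profiles. The number of arrays limits the precision.

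Members and lists were chosen with earlier results of these data known. Named are members called or among the 10 smallest p in a treatment contrast, those detected on all arrays of FAK1 or FAK5, the 15 brightest of FAK7, members of the role lists, and up to 4 genes of each supporting list. Some are given only in counts or figures. Deviations of same-numbered arrays correlated between -0.043 and 0.28, not all over 0.1, so replicate numbers were not taken as pairs. Some pairing is still possible. In FAK5 each treated array correlated best with its same-numbered untreated array, as did FAK1 replicates 2 and 3 and FAK7 replicate 1. The fits were tested on simulated data. Alternatives covered background correction, normalization, filters, probes, variances, thresholds and samples.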

Additional observations from a re-analysis of the deposited data

Results flagged for a closer look

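The treatment difference of Cyp26a1 differed between the labels by the moderated F test of limma (adjusted p = 0.0123). It was -1.29 in FAK7, 0.07 in FAK1 and -0.07 in FAK5 (log2, treated minus untreated, 3 arrays against 3 each). All 3 treated FAK7 arrays lay below the 3 untreated ones. In FAK1 and FAK5 no array was well above background, so the test compares a response in FAK7 with values at background.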

How the results depend on the processing

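Few results moved. P450 genes called for treatment in FAK1 numbered 1 without the 2 untreated arrays with Eif2s3y, and 0 to 1 without single arrays. For treatment in FAK7 the count was 0 under strict detection on all arrays (8 members left), 3 with the mean of probes, 2 with robust variances, 3 with the replicate block (Cyp2c54, adjusted p = 0.0279, and Cyp7a1, 0.045, beside Cyp26a1), 3 with each probe on its own, and 1 to 3 without single arrays. Replicate numbers were not taken as pairs in the main fit, and the labels do not say whether they are. The block changed no other treatment count. For the treatment effect differing between labels the count was 0 under strict detection, with the mean of probes and at an adjusted p under 0.01, and 0 to 2 without single arrays. With strict detection, level counts of 8 members were 8 for FAK7 minus FAK1, 7 for FAK7 minus FAK5 and 6 for FAK1 minus FAK5. Without single arrays they were 46 to 47, 47 to 48 and 12 to 14. Some level calls of single genes were lost. For FAK1 minus FAK5, Cyp20a1 lost its call with the mean of probes (adjusted p = 0.143) and on untreated arrays only (adjusted p = 0.658). For FAK7 minus FAK5, Cyp4b1 lost its call on untreated arrays only (adjusted p = 0.0694). Small differences turned sign, none of them called. In FAK5, Cyp3a44 became -0.10 and Cyp7b1 -0.021 without the Eif2s3y arrays, and Cyp4v3 ranged from -0.379 to 0.0589 without single arrays. For FAK7 minus FAK1, Cyp2b23 became 0.33 on treated arrays only and ranged from -0.61 to 0.20 without single arrays, and Cyp4f16 became -0.0174 on untreated arrays only and ranged from -0.0101 to 0.27 without single arrays. For FAK7 minus FAK5, Cyp20a1 became -0.21 with the mean of probes, -0.063 on untreated arrays only and -0.0181 to 0.159 without single arrays. Beyond fewer genes or samples, the cause was not tested. Genes near background, such as Cyp2c54, are limited by signal.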
